A study of Rattus norvegicus with 7 samples.

Results

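The integrins described here are 10 subunits of epithelial cells, the α subunit genes Itga2, Itga3, Itga5, Itga6, Itga9 and Itgav and the β subunit genes Itgb1, Itgb4, Itgb6 and Itgb8. They were taken by symbol from the 17246 genes analysed, and all 10 were found and passed the filter on low counts. RNA was sequenced from meibomian glands, the lipid-secreting glands of the eyelid, of wild-type female Sprague-Dawley rats aged 3 months. There were 4 libraries from rats with no treatment (control a to d) and 3 from rats whose upper eyelids received ultraviolet B light (UVB a to c) at 300 mJ/cm2, in sessions of 5 min per day on 5 days. The labels describe shaving of the eyelids in a protocol given for every sample, list the controls as untreated, and do not give the time from the last exposure to dissection.

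Integrins are receptors made of 1 α and 1 β chain that tie a cell to the matrix around it. In stratified and glandular epithelium they sit mainly on basal cells. The dimer α6β4 anchors these cells to laminin through hemidesmosomes, and α3β1 binds the same laminin in focal adhesions. Other integrins of epithelium are receptors for fibronectin (α5β1), collagen (α2β1) and tenascin (α9β1), and αv dimers that release active TGF-β (αvβ6, αvβ8). Of these, α5β1 and αvβ6 are best known from epithelium that migrates over wounds.

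In UVB glands 4 of the 10 integrin genes rose and none fell. Itga5, the fibronectin receptor subunit, nearly doubled (log2 fold change 0.99, SE 0.091), and Itgb4, the hemidesmosome subunit, rose by 33.0% (0.41, SE 0.066). The laminin receptor genes Itga3 and Itga6 rose by 24.3% and 18.9%, with calls close to the threshold. The collagen and tenascin receptor genes and the 3 genes of the αv dimers did not pass the test. Of all 13709 genes tested, 13% passed the same threshold (edgeR's quasi-likelihood test, Benjamini-Hochberg adjusted p under 0.05 over all genes), 6.3% of them higher and 6.74% lower, each as a share of the genes tested. The median log2 fold change was 0.16 over the 10 integrins and -0.0058 over all genes. With DESeq2, which passed 17.9% of the genes it gave an adjusted p, 5 integrins were higher and 0 lower. At an unadjusted p under 0.05 edgeR had 5 higher and 0 lower, against 29.5% of all genes in either direction.

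The upstream sequences of 3 members are shown because they hold the ends of the range, Itga5 with the highest and Itgb6 with the lowest log2 fold change, and Itga3 as a laminin receptor that rose. Each is the 250 bases before the gene's start in RefSeq's rat assembly GRCr8, 5′ to 3′, and capitals mark the GC box (GGGCGG on either strand), the short motif bound by SP-family factors. They lie on the minus strand at chr7:136381306-136381555 (Itga5), chr10:80518902-80519151 (Itga3) and chr3:65530334-65530583 (Itgb6).
Itga5: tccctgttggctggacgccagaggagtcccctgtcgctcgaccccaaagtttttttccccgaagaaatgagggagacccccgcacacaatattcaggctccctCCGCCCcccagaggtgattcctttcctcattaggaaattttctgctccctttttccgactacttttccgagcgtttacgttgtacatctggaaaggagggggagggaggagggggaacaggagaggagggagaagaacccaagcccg
Itga3: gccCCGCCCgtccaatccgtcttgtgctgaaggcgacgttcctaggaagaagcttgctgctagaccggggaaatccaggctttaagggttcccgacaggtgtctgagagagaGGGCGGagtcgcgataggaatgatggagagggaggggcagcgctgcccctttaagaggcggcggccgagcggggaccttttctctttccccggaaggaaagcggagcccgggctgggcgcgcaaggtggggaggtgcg
Itgb6: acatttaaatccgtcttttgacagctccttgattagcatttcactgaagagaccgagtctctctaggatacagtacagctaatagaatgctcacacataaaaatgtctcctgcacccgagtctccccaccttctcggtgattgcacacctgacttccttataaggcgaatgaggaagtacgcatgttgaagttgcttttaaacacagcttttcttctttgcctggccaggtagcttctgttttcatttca

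Upstream sequence was found for 8 of the 10 members, but not for Itga6 and Itgb4, which were both called higher. Of these 8, 7 held at least 1 GC box, against 57.6% of 10334 tested genes with a sequence. Itgb1, the subunit shared by most dimers, had 4 boxes and Itga2 had 3, while Itgb6 had none. The upstream sequence of Itgb6 was also the poorest in G and C among the 8, at 43.2%, where Itga5 had 55.6%, Itga3 64.0% and Itgav the most, 72.0%. The AP-1 motif TGANTCA was in 0 of the 8 windows and in 4.8% of all, TATAAA in 0 of 8 and 6.9%, and GGAATG (the motif of TEAD factors) in 3 of 8 and 10%, both strands searched. The 3 with GGAATG were Itga3, Itgb1 and Itgb8, of which Itga3 was called and the other two were not. These matches describe letters in a window and not binding.

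Levels per length, in TPM (the authors' length-scaled unit of transcript abundance), placed the shared subunit gene first. In controls Itgb1 measured 121.0 ± 4.98 TPM (SD, n = 4), followed by Itga6 at 55.1 ± 2.13 and Itgb4 at 53.9 ± 4.05, whose ranges overlapped. Itgav (21.0 ± 1.32) and Itga3 (20.2 ± 2.13) came next and also overlapped, then Itgb6 (14.6 ± 2.34) and Itgb8 (9.19 ± 1.25). The range of Itgb8 overlapped that of Itga5 (6.96 ± 0.854), and the scarcest genes, Itga2 (2.67 ± 0.209) and Itga9 (2.16 ± 0.284), overlapped each other. The plot of TPM by library shows this order, with the hemidesmosome pair Itga6 and Itgb4 next below the shared subunit.

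**Figure D1:**
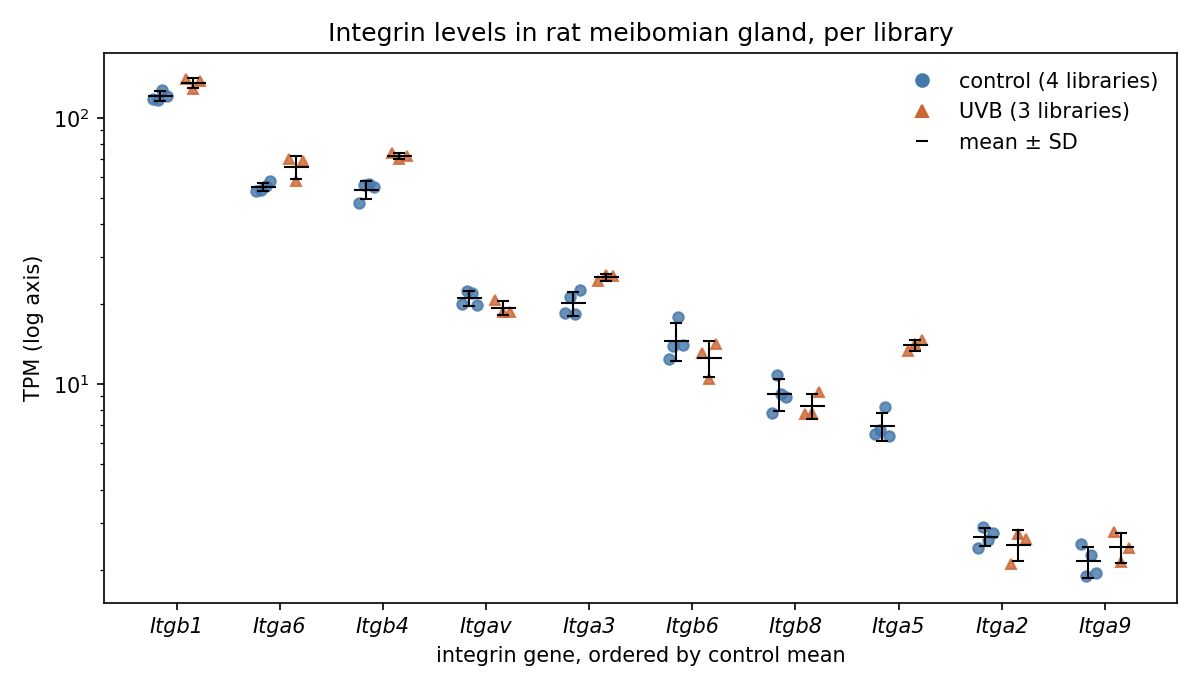
TPM of the 10 integrin genes (log axis) in each of 4 control libraries (circles) and 3 UVB libraries (triangles), with the mean and SD of each group as black bars and genes ordered by control mean. Itgb1 is highest in both groups, and Itga5 moves from a control mean of 6.96 TPM to 14.0 TPM after UVB.

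After UVB the order was the same at the top, with Itgb1 at 135.3 ± 6.14 TPM (SD, n = 3), and changed in the middle. Itgb4 (71.9 ± 1.81) now lay above Itga6 (65.6 ± 6.54) and Itga3 (25.2 ± 0.701) above Itgav (19.4 ± 1.18), with no overlap in either pair, although the lowest Itgb4 value (70.05) and the highest Itga6 value (69.95) nearly met. Itga5 (14.0 ± 0.673) went from below Itgb8 to the level of Itgb6 (12.6 ± 1.91), and the ranges of these 2 genes overlapped. The 10 genes summed to between 289 and 320.2 TPM in controls and between 338 and 368 TPM after UVB, of which Itgb1 made up 38.1% to 40.8% and 37.7% to 38.04%. Among the α subunit transcripts, Itga5 made up 5.75% to 7.54% in controls and 9.97% to 11.7% in UVB libraries.

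Itga5 (NCBI gene 315346) encodes the α chain of the main fibronectin receptor, a dimer that keratinocytes carry at low levels at rest and raise in wounds. In CPM (counts as a share of the library size after TMM scaling) it measured 18.95, 19.5, 23.2 and 18.9 in control a to d and 37.1, 40.95 and 41.8 in UVB a to c. Every UVB library lay far above every control, and the highest control, c, was the only one over 20 CPM. Group means were 20.1 ± 2.05 CPM in controls (SD, n = 4) and 39.96 ± 2.50 CPM in UVB libraries (SD, n = 3), 98.2% more (log2 fold change 0.99, SE 0.091, 95% interval 0.78 to 1.19, edgeR adjusted p = 0.00095). It passed in all 19 alternative fits, with log2 fold changes from 0.92 to 1.06 and adjusted p-values up to 0.00586. The counts behind these values ran from 406 to 1085 per library and were whole in every one.

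Itga5 is also carried by fibroblasts and endothelial cells, and in bulk RNA a larger number of such cells and more RNA per cell cannot be told apart. Of 6 fibroblast markers tested, 4 were called higher (Lum, Dcn, Pdgfra and Pdgfrb) and none lower, and 5 had log2 fold changes above 0. The exception was Col1a1, the most abundant of the 6 in controls. Its mean was 491 TPM in controls and 353 TPM after UVB (log2 fold change -0.48, edgeR adjusted p = 0.26). The summed level of the 6 was 660 to 1024 TPM in controls and 881 to 1472 TPM after UVB. Of 5 endothelial markers, 2 were higher (Vwf and Cdh5) and none lower, with sums of 40.6 to 49.4 TPM and 49.9 to 55.1 TPM. The calls of Lum, Pdgfra, Pdgfrb and Vwf held without any single library. Dcn lost its call without control b (edgeR adjusted p = 0.0698), c (0.0563), d (0.0627), UVB a (0.0751) or UVB c (0.0589), and Cdh5 without control a (0.0508), b (0.0824), c (0.0723), UVB a (0.098) or UVB c (0.0846).

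Markers of other cells of the gland also moved. Of 6 smooth muscle and pericyte markers, 2 were called higher, Des (log2 fold change 0.57, edgeR adjusted p = 0.0218) and Tagln (0.39, adjusted p = 0.0279), and 0 lower. Their sums were 831 to 1068 TPM in controls and 972 to 1071 TPM after UVB. The list did not share 1 direction, with 3 of 6 log2 fold changes above 0 and a median of -0.037. Myh11 (-0.31), Rgs5 (-0.25) and Acta2 (-0.16) were below 0 and did not pass. Des lost its call without control b (0.0528), d (0.0581), UVB a (0.0631) or UVB b (0.072), and Tagln without control b (0.0673), d (0.0759), UVB a (0.0623), UVB b (0.0622) or UVB c (0.0795). Of 9 leukocyte markers, 2 were higher and 0 lower, with sums of 1727 to 2099 TPM and 2022 to 2234 TPM. They were the macrophage receptor gene Cd163, at 2.57 ± 0.966 CPM over 4 controls and 29.6 ± 12.9 CPM over 3 UVB libraries (SD; 3.50, adjusted p = 0.00402), and S100a9 (0.46, adjusted p = 0.0333). S100a9 kept its call without UVB a alone, with adjusted p-values of 0.0501 to 0.0856 otherwise. The general leukocyte gene Ptprc (-0.045, adjusted p = 0.942) did not pass. Of the 9 leukocyte markers 4 had log2 fold changes above 0, and the median was -0.0093. Lyz2 (-0.77), Cd3e (-0.55) and Cd68 (-0.41) were among those below 0 and did not pass. Most of the leukocyte sums came from S100a8, with means of 1354 TPM in controls and 1488 TPM after UVB. All 5 Schwann cell markers had log2 fold changes below 0 and 1 was called lower, with sums of 97.4 to 109.9 TPM and 71.3 to 79.7 TPM. Of 5 skeletal muscle markers edgeR, DESeq2 and limma-voom called 0 (0 at an unadjusted edgeR p under 0.05), with sums of 2089 to 2928 TPM and 1416 to 2563 TPM. All 5 of these also had log2 fold changes below 0, with a median of -0.27. No marker of these lists, or of the fibroblast and endothelial ones, was at 0. The part of any of these cells in the integrin changes was not tested.

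Itgb4 (NCBI gene 25724) encodes the long-tailed β chain that pairs with α6 in hemidesmosomes. It measured 181.7, 212, 207 and 208 CPM in control a to d and 271, 266 and 269.7 CPM in UVB a to c. The UVB libraries lay close together and above every control, and control a was lower than the other controls. Means were 202 ± 13.7 CPM for controls (SD, n = 4) and 269 ± 2.60 CPM for UVB (SD, n = 3), and the log2 fold change was 0.41 (SE 0.066, 95% interval 0.26 to 0.56, edgeR adjusted p = 0.00678). It passed in all 19 alternatives, with log2 fold changes of 0.37 to 0.43 and adjusted p-values up to 0.0245. All 7 of its expected counts were fractional, which happens where reads are split between genes, so its level is uncertain.

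Itga6 (NCBI gene 114517) encodes the α chain that pairs with β4. It measured 195.5, 194.6, 197 and 211 CPM in control a to d. UVB a, b and c measured 249.0, 214 and 249.2 CPM. UVB b was only just above control d, while the other 2 UVB libraries were well above all controls. The log2 fold change was 0.25 (SE 0.070, 95% interval 0.093 to 0.41, edgeR adjusted p = 0.0453). Without UVB b it was 0.32 (adjusted p = 0.022). Leaving out control a (adjusted p = 0.066), b (0.105), c (0.113), d (0.0645), UVB a (0.121) or UVB c (0.136) ended the call, at log2 fold changes of 0.22 to 0.28.

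Itga3 (NCBI gene 360606) encodes the α chain of the laminin receptor of focal adhesions. It measured 55.8, 63.9, 53.3 and 67.9 CPM in control a to d and 71.3, 77.6 and 75.6 CPM in UVB a to c. The controls spread more widely than the UVB libraries, and the groups did not overlap. Controls averaged 60.2 ± 6.84 CPM (SD, n = 4) and UVB libraries 74.8 ± 3.23 CPM (SD, n = 3), for a log2 fold change of 0.31 (SE 0.089, 95% interval 0.11 to 0.51, edgeR adjusted p = 0.0465). The call held without control d (0.38, adjusted p = 0.0368). It was lost without control a (adjusted p = 0.0761), b (0.0666) or c (0.11), and without UVB a (0.0681), b (0.124) or c (0.107).

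Itgb1 (NCBI gene 24511) encodes the β chain shared by the collagen, fibronectin, tenascin and several laminin receptors. It measured 259.8, 256, 272 and 268 CPM in control a to d and 298, 282 and 299.7 CPM in UVB a to c, with every UVB library above every control. The difference was small (log2 fold change 0.15, SE 0.057, 95% interval 0.023 to 0.28) and did not pass with edgeR (adjusted p = 0.113). It passed in 1 of 19 alternatives, DESeq2 (adjusted p = 0.0393; 0.247 at most over the alternatives). The groups failed to overlap for 5 of the 10 members, all higher after UVB, where 26.6% of all tested genes did not overlap in either direction, 12.8% with UVB higher and 13.8% with UVB lower.

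**Figure D2:**
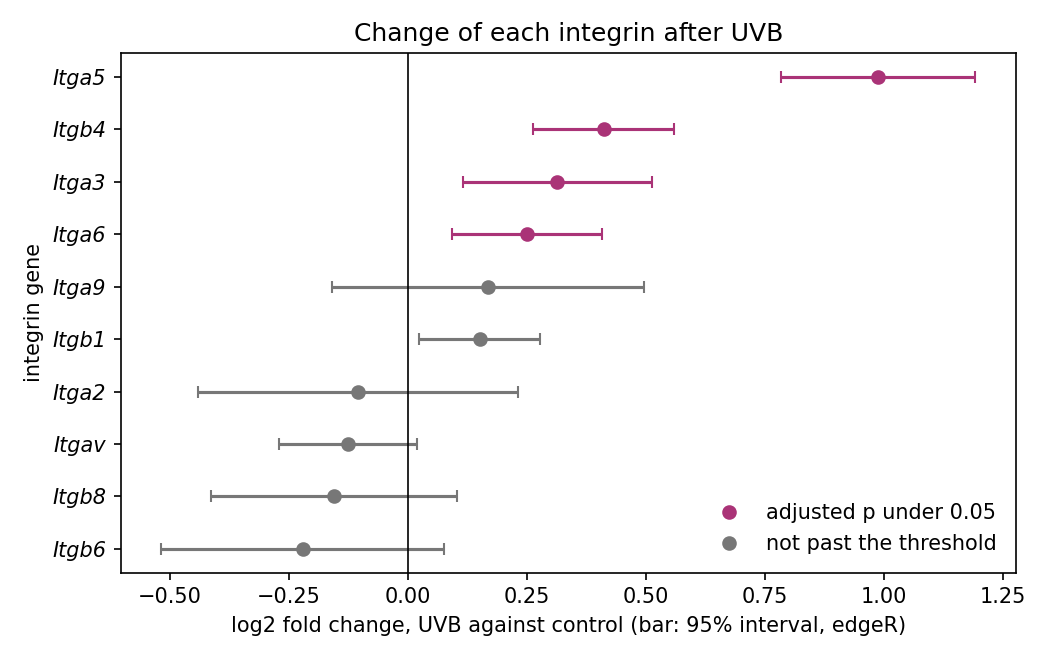
Log2 fold change of each integrin gene in UVB against control libraries (points), with 95% intervals from edgeR's quasi-likelihood fit as bars, coloured by whether the adjusted p was under 0.05. Itga5 stands at 0.99 with an interval that lies above those of the other 9 genes, and the interval of Itgb6, the lowest at -0.22, includes 0.

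The remaining 5 members did not pass in any of the 19 alternatives. Itgav, the α chain of receptors for RGD motifs in vitronectin, fibronectin and latent TGF-β, ranged from 88.9 to 100.4 CPM in controls and from 83.2 to 90.7 CPM after UVB (log2 fold change -0.13, 95% interval -0.27 to 0.020, edgeR adjusted p = 0.228). Its partner gene Itgb6, which is largely restricted to epithelium, ranged from 20.9 to 29.2 CPM and from 17.7 to 23.5 CPM (-0.22, interval -0.52 to 0.076, adjusted p = 0.299). For both genes 1 or more UVB libraries lay within the controls.

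Itgb8, the other TGF-β activating partner of αv, ranged from 31.1 to 42.9 CPM in controls and from 29.9 to 36.6 CPM after UVB (log2 fold change -0.16, 95% interval -0.41 to 0.10). The gene of the collagen receptor chain, Itga2, ranged from 5.51 to 6.58 CPM and from 4.64 to 6.23 CPM (-0.10, interval -0.44 to 0.23). The gene of the tenascin receptor chain, Itga9, ranged from 6.11 to 7.98 CPM and from 6.77 to 8.67 CPM (0.17, interval -0.16 to 0.50). The intervals of all 5 genes include a change as large as that called for Itga6, upward for Itga9 and downward for the other 4. Itga2 and Itga9 had 98 to 203 counts per library, the lowest of the 10, and the widest intervals.

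The balance of subunits was examined as the TPM ratio within 10 pairs, 9 of them known dimers and the other the 2 β chains Itgb4 and Itgb1. There were 0.0549, 0.0577, 0.0643 and 0.0527 Itga5 transcripts per Itgb1 transcript in control a to d and 0.095, 0.110 and 0.106 in UVB a to c. The groups were far apart, with a log2 difference of 0.86 (exact two-sided permutation test, p = 0.0286, 0.143 adjusted over the 10 ratios). The smallest p that 35 splits of 7 libraries allow is 0.0286, so no single ratio could pass after adjustment. By this test 0 of the 10 ratios passed at the adjusted threshold, with TPM or with CPM, and 2 had an unadjusted p under 0.05.

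The second was Itgav to Itgb1, at 0.170, 0.191, 0.172 and 0.163 in control a to d and 0.148, 0.146 and 0.136 in UVB a to c. All UVB libraries were below all controls (log2 difference -0.28, exact permutation p = 0.0286, adjusted 0.143). The hemidesmosome pair was near parity, with 1.03 ± 0.0705 Itga6 transcripts per Itgb4 transcript in controls (SD, n = 4) and 0.911 ± 0.0709 after UVB (SD, n = 3). Its highest UVB value, 0.9545, and lowest control value, 0.9551, nearly met (exact permutation p = 0.0571, adjusted 0.143). Itgb4 to Itgb1 was 0.445 ± 0.0308 in controls (SD, n = 4) and 0.532 ± 0.0122 after UVB (SD, n = 3), also without overlap (exact permutation p = 0.0571, adjusted 0.143). The ratios of Itgb6 and of Itgb8 to Itgav overlapped between groups, with log2 differences of -0.094 and -0.030.

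**Figure D3:**
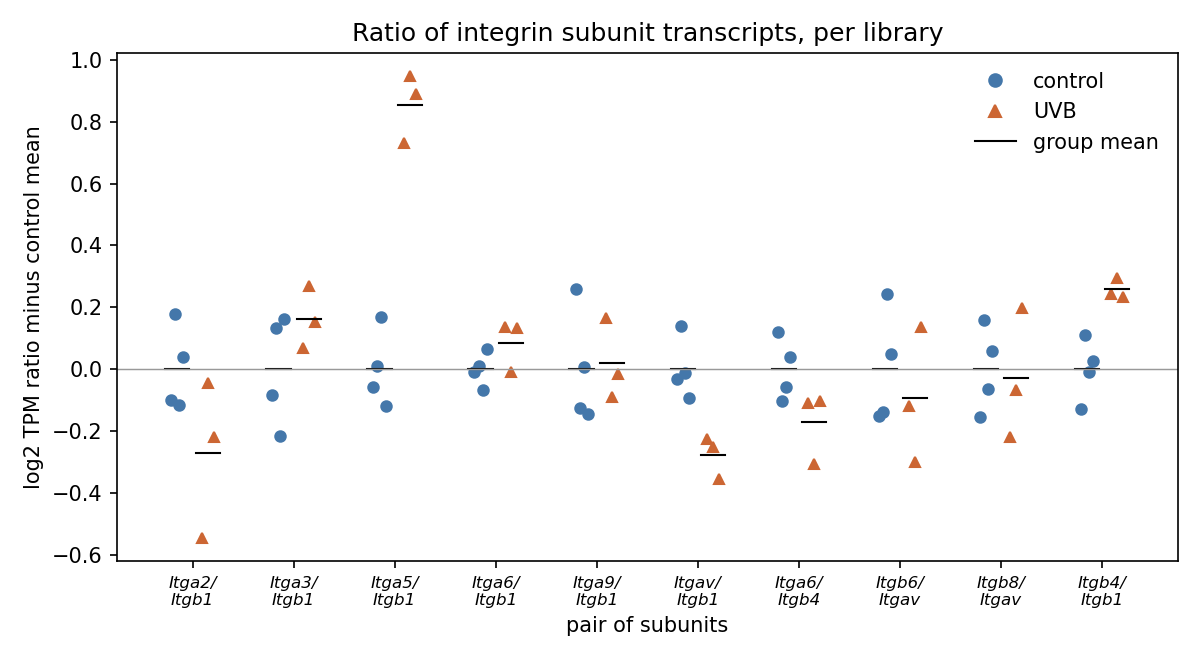
Log2 TPM ratio of 10 pairs of integrin subunits in each control library (circles) and UVB library (triangles), with the control mean of each pair set to 0 and group means as black lines. Itga5 to Itgb1 lies 0.86 above the control mean after UVB, and Itgav to Itgb1 lies 0.28 below it.

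The calls of the 5 members that separated the groups differed in how much they rested on the fit. Itga5 and Itgb4 passed in 19 of 19 alternatives, Itga3 in 10, Itga6 in 8 and Itgb1 in 1. The number of integrins called was 2 under upper quartile scaling, with library size alone and with unfiltered log2(TPM + 1), and 2 or 3 in each fit that left out 1 library. None was called lower in any fit.

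**Figure D4:**
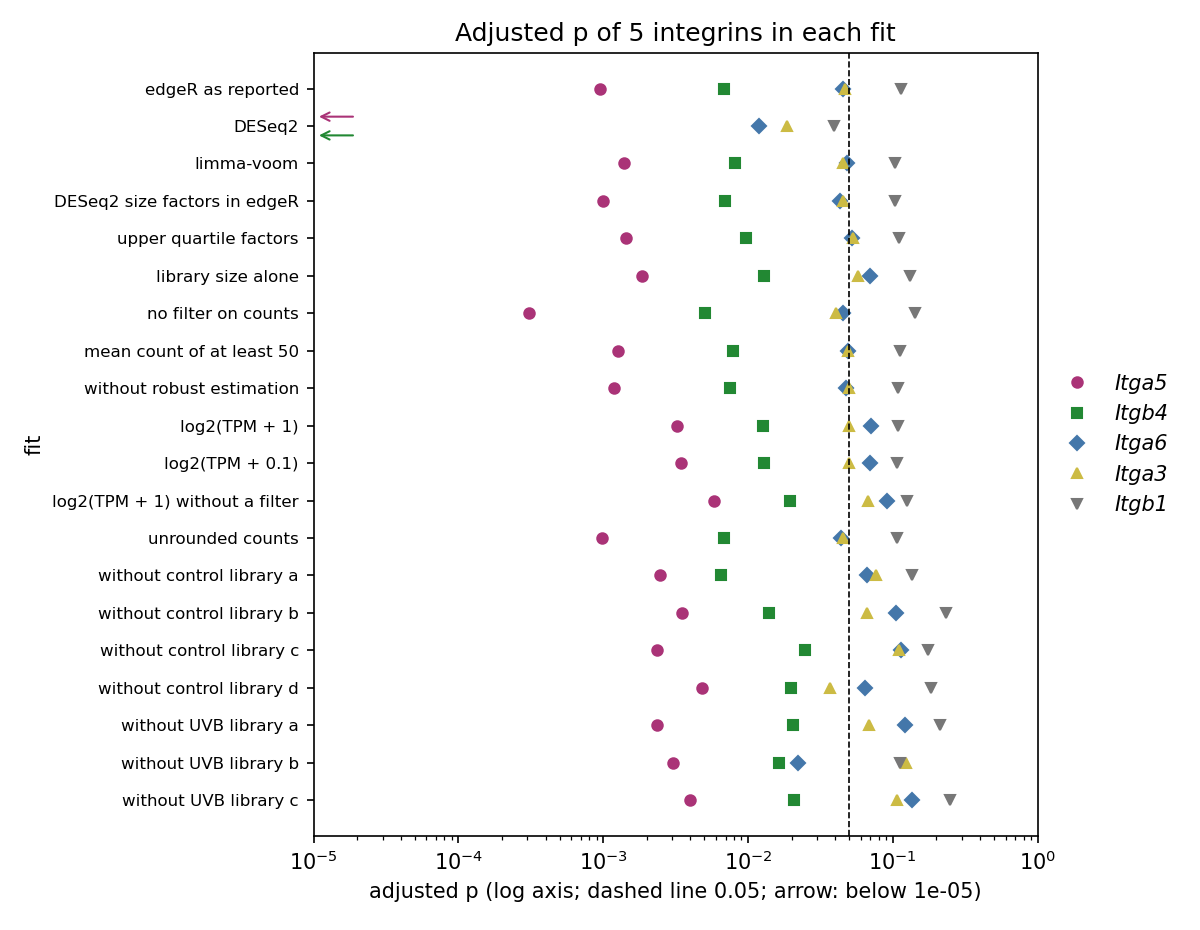
Adjusted p (log axis) of Itga5, Itgb4, Itga6, Itga3 and Itgb1 in the reported edgeR fit and in 19 alternatives, with a dashed line at 0.05 and arrows for values below the axis. Itga5 and Itgb4 are left of the line in every fit, while Itga6 and Itga3 lie on either side of it.

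The other integrins of the gland were listed for comparison. Of 7 subunits listed for stroma, muscle and vessel, edgeR, DESeq2 and limma-voom called 0, with 1 lower at an unadjusted edgeR p under 0.05 (Itga10). The most abundant of them was Itgb5, another partner of αv, at 54.5 TPM in controls and 59.1 TPM after UVB. Which cells carried Itgb5, epithelial or other, was not tested. Of 8 leukocyte and platelet integrins the 3 tools also called 0, and none had an unadjusted edgeR p under 0.05. Summed over the 8, these measured 10.5 to 22.2 TPM in controls and 10.7 to 15.9 TPM in UVB libraries, so they were scarce beside the epithelial members.

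Among the ligands, genes of the basement membrane moved unequally. Of 18 tested, 5 were higher and 2 lower, and the median log2 fold change was 0.073. Col4a1 and Col4a2, the chains of network collagen, rose from 107 ± 13.2 to 204 ± 20.6 CPM and from 91.0 ± 9.81 to 158 ± 13.5 CPM (SD, n = 4 and 3; edgeR adjusted p = 0.0023 and 0.00234). Both had fractional expected counts throughout, so their levels are uncertain. Lamb3, which encodes a laminin β chain of epithelial basement membrane, measured 84.2 ± 7.83 and 83.4 ± 3.82 CPM (-0.014, edgeR adjusted p = 0.928), with a sign that depended on single libraries.

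Lamc1, the γ chain of many laminins, and Nid1, a linker of laminin and collagen, were higher by 0.30 and 0.42 on the log2 scale (edgeR adjusted p = 0.0293 and 0.0303). The genes lower were Lamc3 (-0.61, adjusted p = 0.0408) and Npnt (-0.44, adjusted p = 0.0355), which encodes a ligand of α8β1. Nid1, Lamc3 and Npnt were named after their values were seen. The calls of these 4 genes were each lost when single libraries were left out. For Lamc1 these were control b (adjusted p = 0.0572), c (0.0554) and d (0.0793) and UVB a (0.0807) and c (0.0611). For Nid1 they were control c (0.0766) and d (0.0551) and UVB a (0.0793) and c (0.0889). For Npnt they were control b (0.0851), c (0.078) and d (0.0894) and UVB b (0.0983) and c (0.0881). For Lamc3 they were every library but control a, with adjusted p-values of 0.0647 to 0.116.

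Of 13 ligands of wound and interstitial matrix, 2 were higher and 1 lower, with a median of 0.23. DESeq2 called 2 higher and 2 lower. Of the 13 log2 fold changes 10 were above 0. The one furthest from 0 was that of Spp1, which did not pass (-2.43, SE 0.73, edgeR adjusted p = 0.0686). Spp1 measured 6.22 ± 5.62 CPM in controls and 1.16 ± 0.368 CPM in UVB libraries (SD, n = 4 and 3). Fn1, which encodes fibronectin, the ligand of α5β1, measured 74.1, 97.0, 102 and 81.0 CPM in control a to d and 146.9, 108 and 118 CPM in UVB a to c. All UVB libraries were above all controls, UVB b by the least. The log2 fold change of Fn1 was 0.49 (SE 0.14, adjusted p = 0.0488 with edgeR), and the call was lost whichever library was left out, with adjusted p-values from 0.0516 without control c to 0.121 without UVB a. Fbn1, a microfibril protein, was higher by 0.69 (SE 0.19, adjusted p = 0.0482). It kept its call without UVB b alone and otherwise had adjusted p-values of 0.0561 to 0.109. Postn, a matrix protein of fibroblasts, was lower by -0.54 (SE 0.13, adjusted p = 0.0306), a call lost without control d (0.0601), UVB a (0.076) or UVB b (0.0968). Tnc, which encodes tenascin C, the ligand of α9β1, measured 125 ± 29.3 and 179 ± 48.1 CPM (0.51, adjusted p = 0.196).

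Of 9 genes listed for TGF-β and related proteins, 2 were higher and 1 lower, with a median of 0.40. Tgfb1 rose, with 17.1 ± 1.22 CPM in controls (SD, n = 4) and 22.7 ± 1.10 CPM in UVB libraries (SD, n = 3; log2 fold change 0.40, SE 0.086, edgeR adjusted p = 0.0187), and lost its call without control c (0.0584) or UVB a (0.0527). Ltbp2, a matrix protein gene listed here by its family only, was higher by 0.64 (adjusted p = 0.0279) and Ltbp4 lower by -0.26 (adjusted p = 0.0328). The libraries on which the Ltbp2 call rested were control a (0.0506 when left out), c (0.0771), d (0.065), UVB a (0.0775) and UVB c (0.0888). For Ltbp4 they were control b (0.0764), c (0.0912), d (0.083), UVB b (0.106) and UVB c (0.0789).

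Among the partners of α6β4 in the hemidesmosome, Col17a1, Plec and Dst did not pass. Col17a1, its transmembrane collagen, averaged 623 ± 76.1 CPM over 4 controls and 549 ± 38.9 CPM over 3 UVB libraries (SD; log2 fold change -0.18, edgeR adjusted p = 0.254). The linker genes Plec (-0.088, adjusted p = 0.562) and Dst (-0.30, adjusted p = 0.0766) were the others, and Dst was called without control a (-0.37, adjusted p = 0.0167) and by DESeq2 (adjusted p = 0.04). Of the 7 genes tested for hemidesmosome partners and tetraspanins, edgeR called 1, where it called 13% of all genes tested. The gene called was the tetraspanin Cd9, which binds β1 integrins. It was higher by 0.29 (SE 0.061, adjusted p = 0.0169), and not called without UVB c (0.055). It was also the only 1 of the 7 with a log2 fold change above 0, and their median was -0.094. Another tetraspanin gene, Cd82, was at -0.27 and did not pass (adjusted p = 0.0915). Of 23 integrin activators and adaptors, from talins and kindlins to actinins, edgeR called 0 (2 higher and 3 lower at an unadjusted p under 0.05), limma-voom 0 and DESeq2 1 in each direction. Their median log2 fold change was 0.0032. Of 2 inhibitors, edgeR, DESeq2 and limma-voom called 0, with 0 at an unadjusted p under 0.05.

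**Figure D5:**
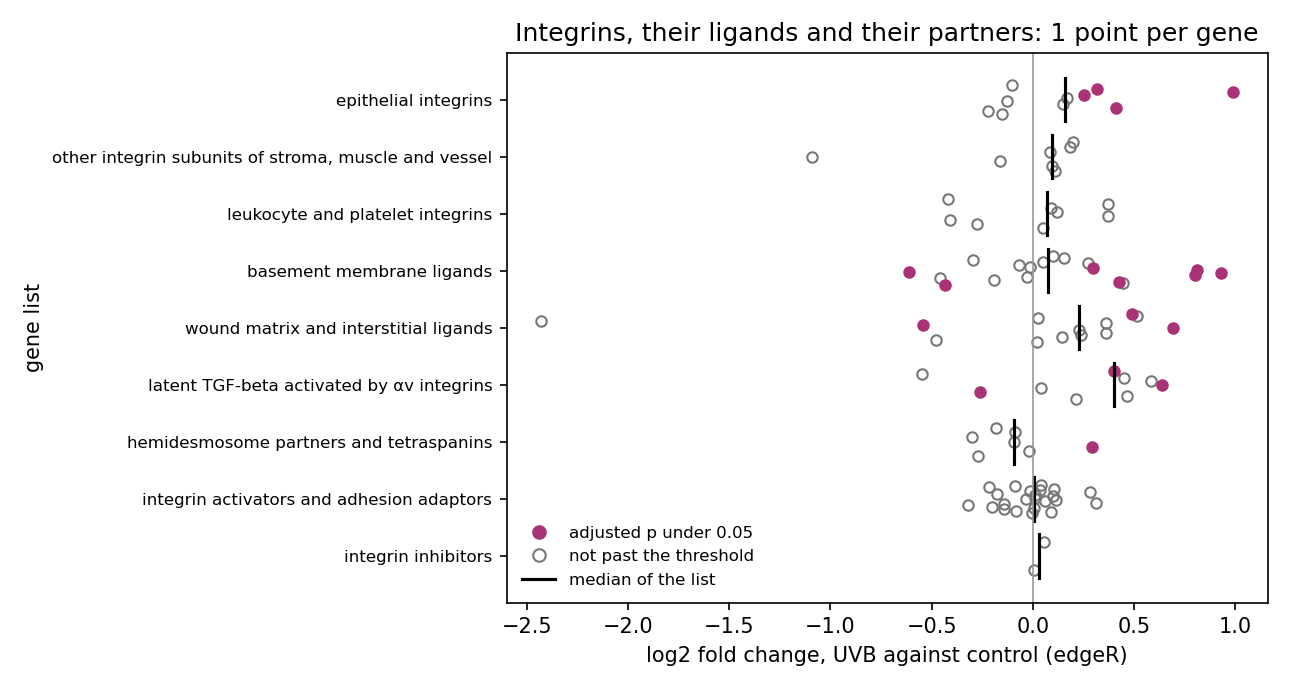
Log2 fold change of each tested gene (1 point per gene) in the 10 epithelial integrins and in 8 lists of other integrins, ligands and partners, filled where the adjusted p was under 0.05, with the median of each list as a black line. The adaptors cluster around a median of 0.0032, and the basement membrane ligands run from -0.61 to 0.93.

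Markers of basal, suprabasal and lipid-secreting epithelium did not share 1 direction. The basal keratin gene Krt14 was higher (log2 fold change 0.47, SE 0.099, edgeR adjusted p = 0.0173), and Krt5, its pairing partner, was at 4536 ± 579 CPM over 4 controls and 4469 ± 255 CPM over 3 UVB libraries (SD; -0.021, adjusted p = 0.922). Krt14 lost its call without control c (0.0628) or UVB c (0.0569). Expected counts of both keratins were fractional throughout. Over 4 basal markers 1 was higher and 0 lower, with sums of 8008 to 10220.0 TPM in controls and 10450.0 to 11540.0 TPM after UVB. In these sums Krt14 had means of 5279 and 7338 TPM, and Krt5 of 3564 and 3529 TPM. Krt14 was the only 1 of the 4 with a log2 fold change above 0, and the median was -0.055. Krt5, Tp63 (-0.089) and Col17a1 (-0.18) were below 0 and did not pass. Of 7 suprabasal markers 1 was lower and 0 higher, with sums of 2636 to 3239 TPM and 2740.0 to 4217 TPM. It was the keratin gene Krt77, which measured 27.2, 85.0, 31.3 and 32.0 CPM in control a to d and 1.04, 0.464 and 0.732 CPM in UVB a to c. Its fall (log2 fold change -5.89, SE 0.63, edgeR adjusted p = 0.00348) was the largest change among the marker genes tested, and it was called without any single library. The other 6 did not pass, among them Krt1 (0.39, adjusted p = 0.11), Krt10 (0.070, adjusted p = 0.798) and Ivl (-1.32, adjusted p = 0.108). Of the 7 log2 fold changes 4 were above 0. DESeq2 called 1 of the 7 higher and 1 lower, and limma-voom 0 higher and 2 lower. Of 8 markers of meibocytes, the lipid-filled cells of the gland, 2 were lower (Awat2 and Plin2) and 0 higher, with sums of 42420.0 to 51350.0 TPM and 38430.0 to 44950.0 TPM. None of these markers was at 0, and the part of cell makeup in the integrin changes was not tested.

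By correlation of log2 CPM over the 7 libraries, the genes most like Itga5 among those with a mean count of at least 50 were Lpl (Pearson r = 0.998), Cpne8 (0.995) and Tnpo1 (0.992). Those most like Itgb4 were Mmp19 (0.99), Il6st (0.986) and Ppic (0.986). These values describe 7 libraries in 2 groups, so a difference between the groups raises them. The lipoprotein lipase gene Lpl averaged 32.0 ± 4.48 CPM over 4 controls and 80.5 ± 3.38 CPM over 3 UVB libraries (SD). Control c was its highest control, as for Itga5, a likeness that the choice of Lpl by correlation over these libraries favours.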

How the data were processed

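For 7 libraries the authors deposited gene-level expected counts, which were not normalised, and TPM values. Per the submitters' processing notes, FastQC, Trimmomatic, DRAGEN and Picard were used with build rn7; how reads were counted, against which annotation and whether by strand is not given in the sources used here. Of the deposited count values, 12.5% were not whole. Gene names with commas shifted cells in 2281 rows, so values were taken as the last 7 cells of a row, and 5 incomplete rows per table were dropped. Columns name the group but not the replicate, so libraries carry letters without pairing. Nothing states that libraries come from separate animals, so p-values measure the spread between these libraries. Totals ran from 20680237 to 28784941 counts; no pair within a group agreed within sampling noise (chi-square per degree of freedom at least 10.9).

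Expected counts were rounded and tested in edgeR 4.0.16 (R 4.3.3; quasi-likelihood, robust, TMM, filterByExpr), which kept 13709 genes; two-sided p-values were adjusted by Benjamini and Hochberg's method over all of them. The SE of a log2 fold change was its size divided by the square root of F. On simulated counts with 200 genes changed 2-fold, 84.5% were recovered and 7.14% of 182 calls among 13616 genes were false. The changed genes were drawn from those with a mean count of at least 50. Smaller changes, such as those of Itgb4, Itga3 and Itga6, were not simulated. Ratios of TPM were compared over the 35 splits of 7 libraries. The alternatives included limma-voom (limma 3.58.1), DESeq2 1.42.0, other scalings and filters, unrounded counts, log2(TPM + 1 or 0.1), a threshold of 0.01, and leaving out each library. The integrins, the 8 lists of partners and the 9 marker lists were chosen with earlier results of these data known. Named genes were the 10 members and up to 4 genes with the smallest p of each list past the threshold. Fixed ligands and hemidesmosome genes, and the 3 genes most correlated with Itga5 and Itgb4, were named too. Marker genes, Itgb5, Itga10, Cd82 and Spp1 were named after their values were seen. Of 163 list entries, 11 were not analysed here and 1 was matched through another symbol. Results for 2 listed genes are not reported here. In GRCr8, loci overlap Itga2, Itga3, Itga9, Itgav, Itgb1, Itgb6, Col4a1, Npnt, Tnc, Fbn1, Lamc1, Plec, Dst, Cpne8, Tnpo1 and Il6st, so their counts are uncertain without strand.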

Additional observations from a re-analysis of the deposited data

Results flagged for a closer look

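Within the 4 controls, 45 values (35 named genes in CPM and 10 ratios) were compared, and in 7 a single library stood far from the rest. About 1 in 20 would by chance if the values were independent. They were not, since the ratios reuse the members and Lpl and Il6st were chosen by correlation with Itga5 and Itgb4. The 7 of 45 can therefore not be set against that rate. Groups of 3 were not examined in this way. For Itga5, control c stood at 23.2 CPM and the others at 18.9 to 19.5 CPM; without control c its log2 fold change was 1.06. Itga6 measured 211 CPM in control d against 194.6 to 197 CPM. Itgb4 measured 181.7 CPM in control a against 207 to 212 CPM, and its log2 fold change was 0.37 without that library. Outside the members, Postn measured 255.9 CPM in control b, Plec 408 CPM in control a, Lpl 38.7 CPM in control c and Il6st 145 CPM in control a. The cause of these gaps was not tested.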

How the results depend on the processing

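No paired analysis was possible because no column name gives a replicate number. The count of integrins called, 4 (all higher), was 2 under upper quartile factors, library size alone, log2(TPM + 1) without a filter and an adjusted p under 0.01, and 2 to 3 in the fits that left out 1 library. The genes called over all, 1787 (863 higher, 924 lower), numbered 851 to 1898 with 1 library left out (421 to 927 higher, 430 to 971 lower), 383 at the 0.01 threshold (223 and 160), and 571 lower under log2(TPM + 1) without a filter. A stricter threshold lowers counts by construction; the cause of the other shifts was not tested. With 1 library left out the log2 fold change of Itga2 ran from -0.19 to 0.0084 and changed sign without UVB a; that of Lamb3 ran from -0.070 to 0.029 and changed sign without control b (0.0072), control c, UVB a (0.0037) and UVB b (0.010). Calls over all alternatives ran from 3 to 9 of 18 basement membrane ligands (7 as reported), 0 to 4 of 13 wound and interstitial ligands (3), 0 to 5 of 9 latent TGF-β genes (3), 0 to 2 of 7 hemidesmosome and tetraspanin genes (1) and 0 to 2 of 23 adaptors (0). Leaving out a library leaves 20 or 15 splits for the ratios, too few to test, so these were recomputed without a test. Members with 98 to 203 counts per library, Itga2 and Itga9, are limited by depth as well as by the number of libraries.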
